A study of Mus musculus with 4 samples.

Results

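Mitosis and cytokinesis genes, a set of 42 chosen by gene symbol for their known roles in cell division, were measured in MLg cells, a fibroblast line from mouse lung. All 42 were among the 12767 gene symbols of the transcript table, and all 42 had a mean of 1 RPKM (reads scaled to transcript length in kilobases and to library depth in units of 1000000) or more in every comparison, so that the filter on low values removed no member. Where a symbol had several of the 25388 transcripts, the transcript with the highest mean RPKM over the 4 libraries stood for it.

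The 4 conditions had 1 library each. The control cells (Ctr) had received a control antagomiR, an antisense oligonucleotide, and the miR-9-LOF cells an antagomiR against the microRNA miR-9-5p. The 2 other groups had received the same control or miR-9 antagomiR together with TGFB1, a cytokine that activates fibroblasts (TGFB1 and TGFB1 + miR-9-LOF). All cells were thus transfected with an antagomiR. The submitters gave 60 nM antagomiR, harvest after 24 h and 5 ng/ml TGFB1 for the last 4 h in the protocol, but 10 nM and 48 h in the design text. No group had a replicate and MLg is 1 line, so differences between libraries carry no p-value, and variation between cultures could not be estimated.

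Cells enter mitosis when cyclin B and the kinase Cdk1 are active together. Chromosomes are then condensed, captured by spindle microtubules at their kinetochores and held back by the spindle checkpoint until all are attached, after which the anaphase-promoting complex releases the sister chromatids and the cell is cut apart at the central spindle. The genes for these steps are transcribed mainly in late cell cycle phases by the MuvB complex with B-Myb and by FOXM1, through a short promoter element named the cell cycle genes homology region (CHR). The level of these RNAs in a culture therefore follows both the share of dividing cells and the amount per cell, and fewer dividing cells and less RNA per cell cannot be told apart in these bulk libraries.

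The promoters of the members shared elements that the choice of genes by name did not use. Promoters of 300 bases (250 before to 50 after the start, RefSeq, GRCm38.p6) were found for 35 of 42 members. A CHR (TTTGAA or TTCGAA on either strand) was present in 29 of 35 (82.9%), against 14.1% of 9945 promoters of genes in the table and 19.4% of all 27025 promoters. A CCAAT box (CCAAT on either strand), the element bound by NF-Y, was present in 27 of 35 (77.1%), against 39.9% and 37.9%, respectively. CHR and CCAAT box occurred together in 25 of 35 member promoters (71.4%), against 6.32% and 7.70%. The GC box GGGCGG, on either strand, was found in 29 of 35 (82.9%), against 64.8% and 35.9%. These shares are matches of letters and not measured binding. The windows of 4 members are shown from 150 bases before to 50 after the start. Mki67 and Top2a were among the 3 members with the lowest log2 change after miR-9-LOF, Cdc20 had the highest, and Plk1 is the most abundant mitotic kinase of the set. A relation of the matches to the changes was not tested. Capitals mark CHR and CCAAT matches on either strand.
Mki67 promoter, chr7:135716330-135716529, minus strand: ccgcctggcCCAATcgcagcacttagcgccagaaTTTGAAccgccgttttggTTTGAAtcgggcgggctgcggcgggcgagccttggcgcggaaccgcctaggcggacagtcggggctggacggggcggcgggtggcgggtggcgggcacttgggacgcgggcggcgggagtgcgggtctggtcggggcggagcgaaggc
Top2a promoter, chr11:99024140-99024339, minus strand: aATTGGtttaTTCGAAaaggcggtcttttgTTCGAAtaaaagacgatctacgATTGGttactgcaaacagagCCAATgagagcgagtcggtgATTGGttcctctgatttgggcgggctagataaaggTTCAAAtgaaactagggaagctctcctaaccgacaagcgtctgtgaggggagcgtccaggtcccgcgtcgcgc
Cdc20 promoter, chr4:118437294-118437493, minus strand: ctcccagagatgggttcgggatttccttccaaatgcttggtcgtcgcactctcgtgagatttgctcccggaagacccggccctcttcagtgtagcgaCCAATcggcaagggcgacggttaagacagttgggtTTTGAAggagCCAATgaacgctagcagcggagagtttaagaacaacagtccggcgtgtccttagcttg
Plk1 promoter, chr7:122159285-122159484, plus strand: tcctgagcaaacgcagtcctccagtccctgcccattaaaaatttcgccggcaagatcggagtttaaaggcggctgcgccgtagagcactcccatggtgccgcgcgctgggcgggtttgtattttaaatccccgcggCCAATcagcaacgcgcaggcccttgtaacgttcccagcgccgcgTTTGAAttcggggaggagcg
All 4 of these windows held at least 1 CHR and 1 CCAAT box. Such matches were not in the windows of all members that were low after miR-9-LOF: that of Cenpe, with the lowest ratio, held 0 CHR and 1 CCAAT box, and that of Mad2l1 held neither. The Top2a window held 3 CHR and 4 CCAAT matches, and the Mki67 window 2 CHR matches and 1 CCAAT box.

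The microRNA blocked by the antagomiR, miR-9-5p, is encoded at 3 mouse loci on chromosomes 3, 13 and 7 with the same mature sequence, shown with its seed (bases 2 to 8) in capitals.
miR-9-5p: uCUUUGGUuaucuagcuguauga
Few 3′UTRs held a match to this seed, among the members as among all genes. The further match CCAAAGA was not summarised. ACCAAAG was present in 4 of 41 members with an annotated 3′UTR (9.76%), against 12.6% of 10819 genes, and the longer match ACCAAAGA in 0 of 41, against 4.07%. The median 3′UTR was 555 nucleotides for the members and 958 for all genes. The 4 sites are shown with the match in capitals (GENCODE transcripts, GRCm38).
Cdk1 3′UTR site: atggaagtgcACCAAAGctggctgggt
Cenpa 3′UTR site: gtgtttgcagACCAAAGgtcaatttgg
Hmmr 3′UTR site: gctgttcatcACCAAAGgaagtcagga
Nusap1 3′UTR site: taccaccaaaACCAAAGctgagaattg
None of these 4 genes changed by the limit used below in any comparison. After miR-9-LOF their log2 changes were -0.33 (Cdk1, the mitotic kinase), -0.28 (Cenpa, the centromeric histone), -0.39 (Hmmr, a spindle protein) and -0.22 (Nusap1, a microtubule-binding protein). All 4 were on the same side as most members without an ACCAAAG match.

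The members were well expressed. Their median level was 9.82 RPKM in control, 7.94 in miR-9-LOF, 8.04 in TGFB1 and 6.96 in TGFB1 + miR-9-LOF cells, against medians over all symbols of 3.07, 2.63, 3.07 and 2.96. In the control they ranged from 1.68 RPKM for the checkpoint kinase Bub1 to 35.9 RPKM for the DNA topoisomerase Top2a. Counts per member ranged from 128 to 5482 in the control library and from 48 to 1772 in the miR-9-LOF library, which was the shallowest, with a total of 14719887 against 27416665. The control library held the highest level of 35 of the 42 members and the lowest of 0. The lowest level was in the miR-9-LOF library for 22 members and in the TGFB1 + miR-9-LOF library for 17. These ranks were not counted over all genes. Of all genes that passed the filter, 71.6% were lower in miR-9-LOF and 51.3% in TGFB1 than in control cells. Between TGFB1 + miR-9-LOF and TGFB1 cells 66% were lower in the former. Summed over the members, counts scaled to a depth of 1000000 were 1845 in control, 1374 in miR-9-LOF, 1541 in TGFB1 and 1427 in TGFB1 + miR-9-LOF cells. Of the fibroblast markers 9 of 10 were in the table, with a sum of 1667 to 3076 RPKM, whereas epithelial markers were near 0 (1 of 5 in the table, up to 0.281 RPKM), as were endothelial markers (1 of 4, up to 0.115 RPKM). Of the leukocyte markers 2 of 5 (Cd68 and Cd14) were in the table, with a sum of 4.62 to 6.98 RPKM that was highest after miR-9-LOF; their part in the results was not tested. Thy1 was not among the transcripts analysed here.

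**Figure D1:**
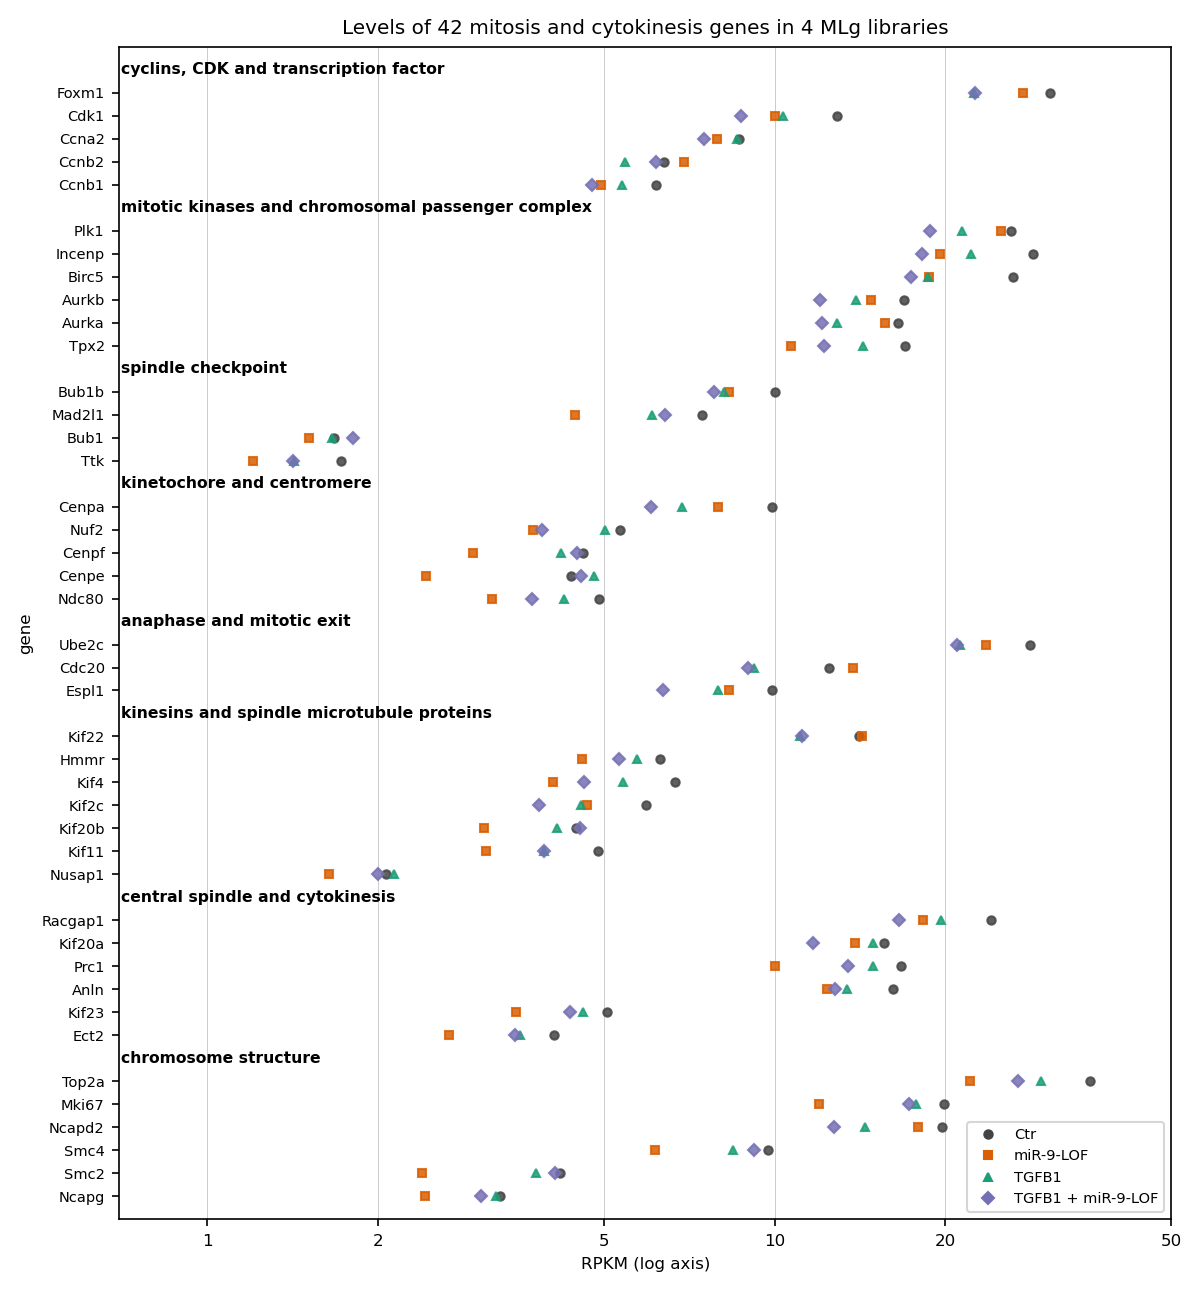
RPKM of each of the 42 genes (rows, grouped by role; log axis) in the 4 libraries, 1 point per library. The control point lies farthest right for 35 of 42 genes, and the miR-9-LOF point farthest left for 22. These ranks were not counted over all genes.

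To see how the division genes responded to the loss of miR-9 in cells without TGFB1, the libraries of miR-9-LOF and control cells were set against each other. Of 42 members 39 were lower, and 9 fell: Mki67, Prc1, Top2a, Cenpe, Mad2l1, Tpx2, Smc2, Kif4 and Smc4. "Fell" and "rose" mean here a log2 change of RPKM + 1 of 0.58 or more in size, the limit of the study, which for high levels is a ratio of 1.49. No member rose. Of all 9291 genes with a mean of 1 RPKM or more, 6.72% fell, 2.03% rose and 71.6% were below 0. The median change of the members was -0.34, and that of all genes was -0.17. The 9 calls depended on the library total by which RPKM is scaled: Rn45s, Mir6236 and Lars2 took 34.1% of all counts after miR-9-LOF and 19.2% in the control, and with TMM, upper-quartile or protein-coding totals, or totals without these 3 genes, 0 members fell and the median of all genes moved from -0.17 to between -0.01 and 0.07. Under these 4 scalings 28 to 31 members were below 0, against 40.8% to 51.6% of all genes.

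Genes of chromosome structure were lowest as a group, with 4 of 6 fallen and a median of -0.60. Mki67 codes for the Ki-67 protein, which coats mitotic chromosomes. It was at 19.9 RPKM in control, 12.0 in miR-9-LOF, 17.8 in TGFB1 and 17.3 in TGFB1 + miR-9-LOF cells. The miR-9-LOF library alone was low, at a ratio to control of 0.602 (0.570 to 0.635; here and below a ratio of RPKM with its exact 95% binomial interval, which covers counting error only). Top2a, which untangles sister chromatids, was at 35.9, 22.1, 29.5 and 26.9 RPKM in the same order. It was the most abundant member in the control, and its ratio after miR-9-LOF was 0.615 (0.582 to 0.650). The condensin subunits Smc2 and Smc4 form the core of the complex that compacts chromosomes. Smc2 was at 4.19, 2.39, 3.80 and 4.10 RPKM. Smc4 was at 9.75, 6.14, 8.43 and 9.18 RPKM. Both were lowest after miR-9-LOF and closer to control in the other libraries. The condensin subunits Ncapg and Ncapd2, at log2 changes of -0.32 and -0.13, did not reach the limit. For Ncapg 13.4% of the exon bases overlap Lcorl on the opposite strand.

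Of the central spindle and cytokinesis genes 1 of 6 fell. Prc1, which bundles the antiparallel microtubules of the central spindle, was at 16.7, 10.0, 14.9 and 13.5 RPKM in control, miR-9-LOF, TGFB1 and TGFB1 + miR-9-LOF cells. Its ratio after miR-9-LOF was 0.600 (0.537 to 0.669). Of its exon bases 11.1% overlap Rccd1 on the opposite strand, and the counts do not separate strands. Racgap1, the GTPase-activating subunit of centralspindlin and the most abundant of this group, was at 24.0, 18.3, 19.6 and 16.6 RPKM, lower than control in all 3 treated libraries. Ect2, the exchange factor that activates RhoA at the cleavage furrow, Kif23, the kinesin of centralspindlin, and Anln, a scaffold of the contractile ring, had log2 changes of -0.47, -0.43 and -0.36, which did not reach the limit.

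Of the kinetochore genes Cenpe fell, with the other 4 between -0.50 and -0.28. Cenpe codes for a kinesin that moves chromosomes to the spindle equator, and was at 4.37, 2.43, 4.81 and 4.56 RPKM. The miR-9-LOF library was at 2.43 RPKM whereas the other 3 lay between 4.37 and 4.81. Cenpa was the most abundant gene of this group by RPKM, at 9.89, 7.96, 6.86 and 6.04. In the checkpoint group Mad2l1, whose product MAD2 inhibits the anaphase-promoting complex, was at 7.45, 4.44, 6.09 and 6.42 RPKM and fell after miR-9-LOF. Bub1b, the checkpoint protein BUBR1, was at 10.0, 8.31, 8.15 and 7.81 RPKM, with 3 treated libraries close together below the control. Ttk, the checkpoint kinase MPS1, was the weakest member by mean RPKM, with 48 to 128 reads, and its ratio after miR-9-LOF of 0.698 (0.490 to 0.980) was among the least precise.

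Of the 6 genes of the kinase and passenger complex group Tpx2 fell. It activates Aurora A on the spindle, and was at 17.0, 10.7, 14.3 and 12.2 RPKM. The kinase it activates, Aurka, was at a log2 change of -0.07. Plk1, the Polo kinase, was at 26.0, 25.0, 21.4 and 18.8 RPKM, so that the miR-9-LOF library was near the control and both TGFB1 libraries were lower. Among kinesins Kif4, a chromosome-associated motor, was at 6.69, 4.06, 5.41 and 4.61 RPKM and fell. Of its exon bases 15.1% overlap Pdzd11 on the opposite strand, and a named pseudogene (Kif4-ps) may share reads. Kif22, which pushes chromosome arms away from the poles, was the most abundant gene of the kinesin and spindle microtubule group by mean RPKM, at 14.1, 14.3, 11.1 and 11.2 RPKM.

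With the deposited RPKM the 3 members above 0 after miR-9-LOF were Cdc20, Ccnb2 and Kif22. Cdc20, the activator of the anaphase-promoting complex, was at 12.5, 13.8, 9.21 and 8.96 RPKM, with the 2 libraries without TGFB1 above the 2 with it. Its ratio was 1.10 (0.966 to 1.26). Ccnb2, cyclin B2, was at a ratio of 1.08 (0.884 to 1.33) and Kif22 at 1.01 (0.897 to 1.14), so that the interval of all 3 included 1. These 3 intervals hold for the deposited library totals and were not repeated under the other scalings, which shift them upward. Ccnb2 and Kif22 have named pseudogenes and are uncertain for that reason. No gene of the cyclin, CDK and transcription factor group fell. Foxm1, the transcription factor of late cell cycle genes, was at 30.6, 27.4, 22.4 and 22.6 RPKM, again with both TGFB1 libraries lowest. Ube2c, the ubiquitin-conjugating enzyme of the anaphase-promoting complex, was at 28.2, 23.6, 21.2 and 21.0 RPKM, and 22.8% of its exon bases overlap Tnnc2 on the opposite strand.

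**Figure D2:**
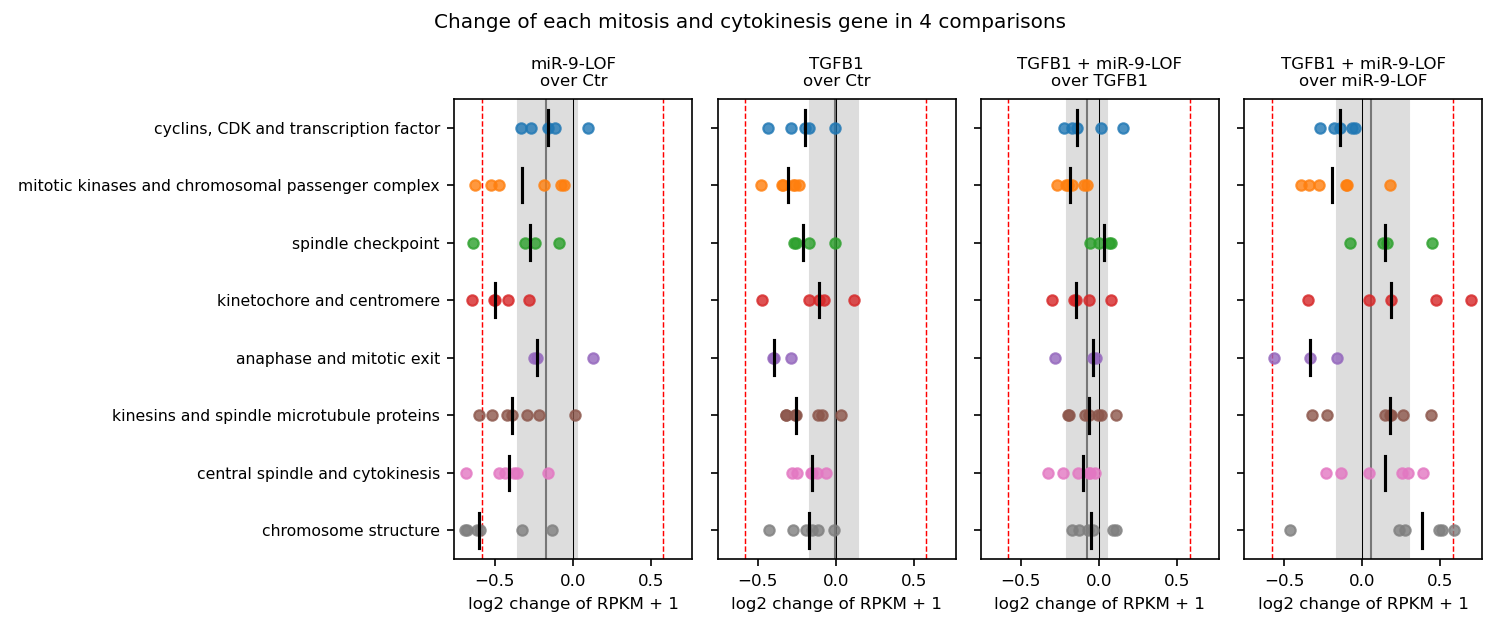
Log2 change of RPKM + 1 of each of the 42 genes in 4 comparisons of 1 library with 1 library, by role (points; black bars are group medians). Grey bands are the quartiles of all genes with their median as a line, and red dashed lines mark the limit of 0.58. In the first panel 9 genes lie left of the limit, 4 of them of chromosome structure, and in the second 40 of 42 lie left of 0 but none past the limit.

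After TGFB1 alone nearly all members were lower than in the control by a small amount. No member fell and no member rose, with 2.92% of all 9527 genes fallen and 2.68% risen, but 40 of 42 members were below 0, against 51.3% of all genes. The median of the members was -0.24 and that of all genes -0.01. Across the scalings, filters and corrections tried the median stayed between -0.29 and -0.23, and of 42 members 39 to 41 were below 0 under each of the other scalings. The summed member counts, scaled to depth, were at a ratio of 0.835 (0.824 to 0.847) to the control. The anaphase group (Ube2c, Cdc20 and Espl1) had the lowest median, -0.39, and the kinase and passenger complex group the next, -0.31. The lowest member on the log2 scale was Birc5, the survivin subunit of the passenger complex, with a ratio of 0.708 (0.624 to 0.803). It was followed by Cenpa at 0.694 (0.581 to 0.825) and Foxm1 at 0.732 (0.694 to 0.773). At the other end Cenpe was at a ratio of 1.10 (1.00 to 1.21), Nusap1 at 1.03 (0.817 to 1.30) and Ccna2, cyclin A2, at 0.995 (0.895 to 1.11). For Ccna2 12.5% of the exon bases overlap Exosc9 on the opposite strand.

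When TGFB1 was present, miR-9-LOF changed no member by the limit: 0 fell and 0 rose, against 1.48% and 2.06% of all 9535 genes. Of 42 members 33 were below 0, as were 66% of all genes, and the median of -0.07 was close to that of all genes, -0.08. Its sign depended on the scaling, since totals without Rn45s, Mir6236 and Lars2 gave 0.12 with 7 members below 0, and 27.8% of all genes. The lowest members were Kif20a, a kinesin of cytokinesis, with a ratio of 0.784 (0.714 to 0.860), Nuf2, a subunit of the NDC80 complex, at 0.775 (0.636 to 0.941) and Espl1, separase, at 0.802 (0.732 to 0.879). For Kif20a 29.3% of the exon bases overlap Cdc23 on the opposite strand. The highest were Ccnb2 at 1.13 (0.918 to 1.40), Smc4 at 1.09 (0.984 to 1.20) and Kif20b, a kinesin of the midbody, at 1.10 (0.963 to 1.25).

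The miR-9-LOF change with TGFB1 minus that without TGFB1, which uses all 4 libraries, was 0.58 or more for 5 of 42 members (Smc2, Smc4, Mad2l1, Mki67 and Cenpe) and -0.58 or less for 0, against 4.52% and 1.27% of 9467 genes. This difference was not tested, since it has no replicate. Its median was 0.24 for the members and 0.08 for all genes. It was 0.70 for Mad2l1, 0.70 for Smc2 and 0.70 for Smc4, and lowest, at -0.17, for Kif20a and Cdc20. Mki67 and Cenpe, at 0.65 and 0.58, passed the limit by less than the median of all genes. The count of 5 was not repeated under the other scalings. All 9 members that fell without TGFB1 were nearer to 0 with it, between -0.21 and 0.11. These 9 were picked by their low values without TGFB1, so values nearer to 0 with it can follow from that choice alone. Of all genes 6.72% fell after miR-9-LOF without TGFB1 and 1.48% with it.

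**Figure D3:**
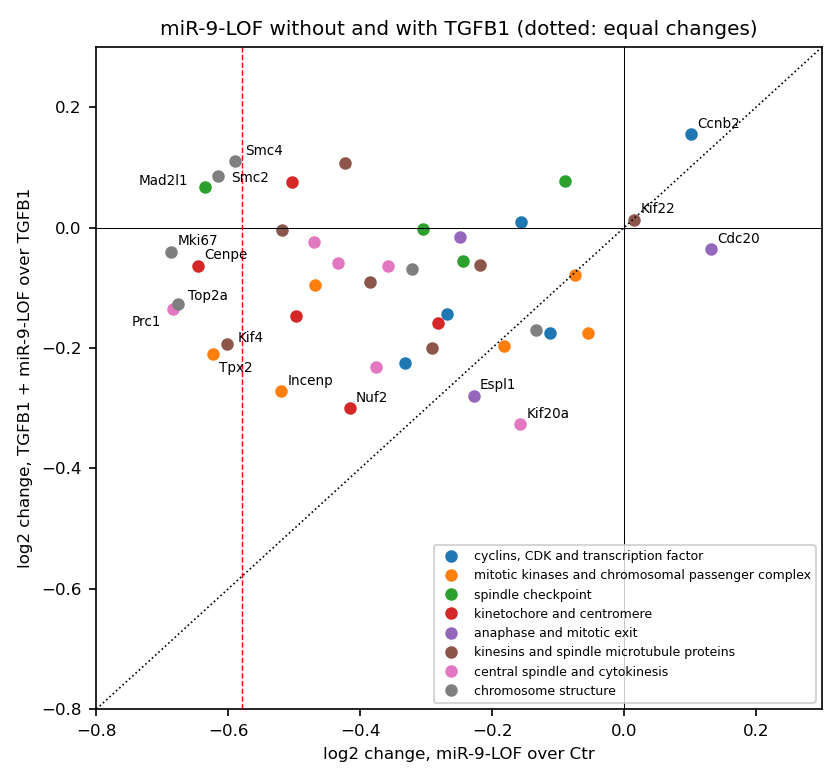
Log2 change after miR-9-LOF without TGFB1 (x axis) and with TGFB1 (y axis) of the 42 genes, coloured by role; the 2 axes share no library. The 9 genes left of the red limit of 0.58 lie between -0.21 and 0.11 on the y axis, all above the dotted line of equal change. They were picked by their x values, which alone can place them above that line.

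Between the 2 libraries with miR-9-LOF, members changed in both directions, with the deposited RPKM in shares near those of all genes. Of 42 members 20 were below 0, against 43.6% of all 9345 genes, and the median was 0.04 (all genes 0.05), but between -0.21 and -0.01 under the other scalings and within bins of GC content or length. Cenpe and Smc2 rose, against 7.13% of all genes, and 0 members fell, against 2.48%. Cenpe was at a ratio of 1.88 (1.63 to 2.17), Smc2 at 1.71 (1.44 to 2.04) and Smc4 at 1.49 (1.32 to 1.69). The lowest were Cdc20 at 0.651 (0.557 to 0.761), Ncapd2 at 0.710 (0.653 to 0.771) and Plk1 at 0.752 (0.681 to 0.830). All 3 anaphase genes and all 5 of the cyclin, CDK and transcription factor group were below 0, while 5 of 6 chromosome structure genes were above it. These groups also differed in GC content, with which the change went across all genes (below). The 5 chromosome structure genes had 39.3% to 46.6%, the anaphase genes 51.4% to 56.1% and the cyclin group 44.2% to 54.6%. Role was not tested apart from GC content. Cdc20, at a log2 change of -0.57, was just inside the limit and Smc2, at 0.59, just past it. Under TMM scaling Smc2 no longer rose and Cdc20 fell.

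Base composition of the transcripts moved with these changes. The members had a median GC content of 46.6% (39.3 to 56.1), below the 51.3% of all genes, and a median length of 3426 nucleotides (923 to 11102), above 2686. After miR-9-LOF the change rose with GC content across the members (Spearman rho 0.51, n = 41) and across all genes (0.43, n = 8464). After TGFB1 alone the relation was the reverse, with rho of -0.75 across members and -0.25 across all genes, and between the 2 miR-9-LOF libraries it was -0.83 and -0.58. With TGFB1 present miR-9-LOF gave -0.38 and -0.06. For the miR-9-LOF change with TGFB1 minus that without, rho was -0.65 across members and -0.47 across all genes. These correlations are across genes of the same libraries, which are not independent replicates. Of the 14 members of lowest GC content 4 fell after miR-9-LOF, of the next 14 also 4, and of the 13 of highest 0. By length 1 of the 14 shortest fell, 3 of the next 14 and 5 of the 14 longest. The shares of all genes that fell were not counted by GC content or length. Longer transcripts were lower after miR-9-LOF across the members (rho -0.42, n = 42) and across all genes (-0.30, n = 9291). Over 10 bins of length the median of all genes went from -0.04 in the shortest to -0.36 in the longest. Compared with genes in the same of 10 bins of GC content, the median of the members after miR-9-LOF was -0.07 and 0 of 41 fell. Centring on the median of all genes, without regard to GC content, gave -0.17 and 0 of 42 fallen. After TGFB1 alone the median was -0.25 within GC bins and -0.24 when centred. Between the 2 miR-9-LOF libraries it was -0.21 within GC bins and -0.01 when centred. The part of base composition in the miR-9-LOF changes was not tested further.

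**Figure D4:**
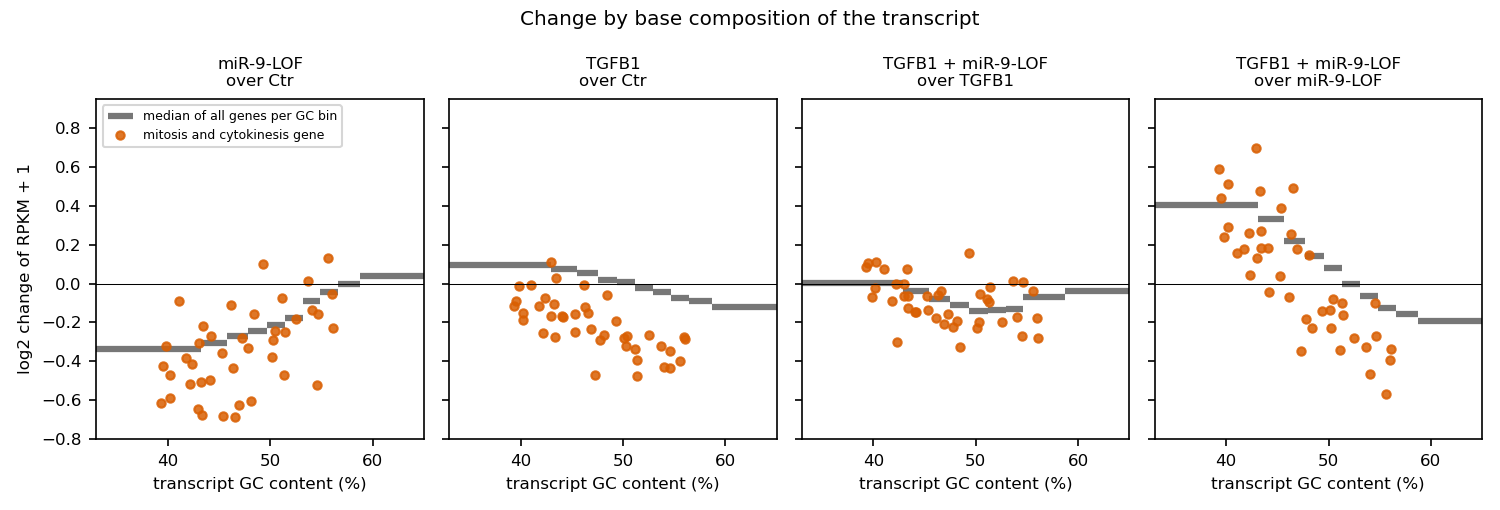
Log2 change of RPKM + 1 against GC content of the transcript for 41 members (orange points) in 4 comparisons; grey lines are medians of all genes per bin of GC content (10 bins of equal size). In the first panel both rise with GC content. In the second the points lie below the grey line over most of the range.

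Other genes of cell division were counted from lists of known members. These counts were made with the deposited RPKM only and were not repeated under the other scalings or within GC bins. Under TMM scaling 0 of the 42 members fell after miR-9-LOF, against 9 with the deposited RPKM. Of 60 further mitosis genes that passed the filter, 7 fell and 0 rose after miR-9-LOF (median -0.30), where 6.72% of all genes fell and 2.03% rose. After TGFB1 alone 2 fell and 0 rose, against 2.92% and 2.68% of all genes, and 57 of 60 were below 0 (median -0.18), against 51.3%. With TGFB1 present miR-9-LOF changed 0 of 60 by the limit. Cohesin, the ring that holds sister chromatids together, and its regulators had 4 of 10 fallen and 0 risen after miR-9-LOF. Between the miR-9-LOF libraries 5 of 10 rose and 0 fell, where 7.13% of all genes rose and 2.48% fell. The cohesin medians were -0.46 and 0.56 in these comparisons, and -0.29 and 0.51 relative to the median of all genes. After TGFB1 alone 0 of the 10 passed the limit and 7 were above 0 (median 0.04), unlike most of the further mitosis genes. Smc3, a core subunit of the ring, was at 10.1 RPKM in the control, 5.41 after miR-9-LOF and 10.1 after TGFB1 + miR-9-LOF. Of the 39 DNA replication genes 0 fell or rose after miR-9-LOF, with a median of -0.20, and 2 fell and 0 rose after TGFB1 (median -0.26). Anaphase-promoting complex subunits had 1 of 13 fallen after miR-9-LOF, near the 6.72% of all genes, and MuvB, E2F and RB-family genes 0 of 13. Of 10 G1 cyclins, CDKs and CDK inhibitors 0 fell after miR-9-LOF and 2 after TGFB1. In these lists the RNAs of the DNA replication genes, which act before mitosis, were lower after TGFB1 for 29 of 39, by a median close to that of the 42 members.

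The choice of transcript mattered little for the members. For 23 of them the table held 1 transcript. For the other 19, with up to 6 transcripts, the log2 changes of the transcripts of a symbol spanned at most 0.11 in any comparison. None of the members shared all 4 counts with another symbol.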

How the data were processed

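Total RNA of MLg cells was sequenced in 4 libraries, grouped by sample title. The authors trimmed single-end reads with Trimmomatic (0.36 in the submitters' processing notes), aligned them to mm10 with Bowtie2 and counted exon reads per RefSeq transcript with HOMER, on both strands; for the other tools no version is given in the sources used here. The deposited counts are whole reads per transcript, so that isoforms with a common exon share its reads. RPKM came from edgeR as run by the authors, who added 1 to each deposited value. The deposited length column holds nucleotides per transcript. The 3 log2 fold change columns hold the authors' own comparisons and, with a sum column, were not used.

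Log2 ratios of RPKM + 1 were taken per symbol, with the transcript of highest mean RPKM and a mean of 1 RPKM or more over the 2 libraries. With 1 library per condition there was no test. Intervals are exact 95% binomial intervals of ratios; they cover counting error only, and without molecular identifiers reads may not be independent. The members and lists were chosen with earlier results of these data known. All members may be named, with 4 values for those past 0.58 and for the most abundant of each role group, and ratios for the 3 lowest and 3 highest per comparison; Smc3 and values of other members were added after they were seen. Alternatives were centring, TMM and upper-quartile scaling (edgeR 4.0.16, R 4.3.3), 2 other totals, another pseudocount, filters, limit and transcript, and, chosen after seeing the data, ratios relative to genes in the same of 10 bins of GC content or length. Scripts (Python 3.11.15) were tested on simulated data. Library totals were 14719887 to 27416665.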

Additional observations from a re-analysis of the deposited data

Results flagged for a closer look

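For 8 members TGFB1 gave a ratio below 1 in cells with the control antagomiR and above 1 in cells with miR-9-LOF, with both counting intervals clear of 1. The same held for 182 of 9467 genes (1.92%), and the reverse for 0 members and 0.655% of genes. The difference between the 2 log2 changes was not tested, since each condition had 1 library. The 8 belong to different steps of division, with 3 from chromosome structure. Mad2l1 was at ratios of 0.816 and 1.44 (difference 0.70 in log2), and Smc4 at 0.865 and 1.49 (0.70). Mki67 was at 0.894 and 1.44 (0.65), and Cenpf, a large kinetochore protein, at 0.915 and 1.52 (0.58). Top2a was at 0.820 and 1.22 (0.55), and Prc1 at 0.891 and 1.34 (0.55). Kif11, the motor that separates the spindle poles, was at 0.806 and 1.26 (0.51), and Tpx2 at 0.841 and 1.14 (0.41). Under TMM and upper-quartile scaling the intervals of Tpx2 and Kif11 with miR-9-LOF included 1 (0.955 to 1.17 and 0.982 to 1.38 with TMM), and the other 6 stayed clear of it, against 1.02% (TMM) and 0.908% (upper quartile) of all genes. In all 8 the miR-9-LOF library was the lowest of the 4 by RPKM. The flagged members with a known GC content had 40.2% to 46.9%. Between the miR-9-LOF libraries the median log2 change of all genes in the 3 bins of lowest GC content was 0.41, 0.33 and 0.22. Kif11 at 0.26, Top2a at 0.27 and Tpx2 at 0.18 were below the median of their bin. Smc4 at 0.51, Mki67 at 0.49, Cenpf at 0.47 and Prc1 at 0.39 were above it. The flagged shares were not counted among genes of like GC content.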

How the results depend on the processing

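After miR-9-LOF alone, the count of 9 fallen members went to 0 with ratios centred on the median of all genes, with TMM, upper-quartile and protein-coding totals, with totals without Rn45s, Mir6236 and Lars2, with a limit of 1, and relative to genes in the same bin of GC content or length (both chosen after seeing the data). It was 13 with a pseudocount of 0.1 and 7 with a mean of 5 RPKM or more, and stayed at 9 without a filter and with the longest transcript. Between the miR-9-LOF libraries, 0 fallen and 2 risen members became 1 and 1 when centred, under TMM, with protein-coding totals and without the 3 genes, 2 and 1 under upper-quartile scaling, and 1 and 3 with a pseudocount of 0.1. The same counts were 0 and 0 with a mean of 5 RPKM or more, a limit of 1 or the GC bins, and 1 and 0 with the length bins. The 2 other comparisons had 0 members past the limit under every alternative. Under the other scalings and bins the median of the members ranged from -0.18 to -0.07 after miR-9-LOF (-0.34 as reported), from -0.29 to -0.23 after TGFB1 (-0.24), from -0.03 to 0.12 for miR-9-LOF with TGFB1 (-0.07) and from -0.21 to -0.01 for TGFB1 with miR-9-LOF (0.04). No paired analysis was possible because each group had 1 library. The miR-9-LOF library had the fewest reads (48 for its weakest member), which limits the precision of the 2 comparisons that use it.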
